A study of Mus musculus with 4 samples.

Results

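The genes described here are the transcriptional coactivators Yap1 and Wwtr1 (which encodes TAZ) and 7 of their best known target genes, Ctgf, Cyr61, Ankrd1, Amotl2, Axl, Lats2 and Nt5e. They were taken by symbol from the deposited expression table, where all 9 were found among 34147 distinct symbols. RNA was sequenced from 4 mouse lung cancer lines of strain 129S1/SvImJ, with 1 library per line. The metastatic lines, 238N1 and 482N1, came from lymph nodes, and the non-metastatic lines, 368T1 and 394T4, came from the lung, so metastasis status and site of origin cannot be told apart. In all 4 lines the tumours had been started with lentiviral Cre, which deletes the floxed p53 alleles (p53flox/flox), and the labels give no other treatment, no age and no culture density. The notes speak both of tumour samples and of cultured cancer cells, and the libraries are described here as cultured lines.

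YAP and TAZ shuttle between cytoplasm and nucleus. The Hippo kinases MST1 and MST2 (Stk4 and Stk3) activate LATS1 and LATS2, which phosphorylate YAP and TAZ and keep them out of the nucleus. When this brake is released, YAP and TAZ enter the nucleus, bind the TEAD transcription factors and switch on genes for growth, matrix contact and their own inhibitors. In lung epithelium the pathway is known for its part in alveolar repair and in the growth of lung tumours. Most of this control acts on the proteins and their location, which RNA levels do not measure.

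The deposited values are FPKM, fragments per kilobase of transcript and scaled to the mapped fragments of the library. Their sums ran from 924354 to 2279794 per library, and a single non-coding row, AC113316.1, took 18.7% to 62.4% of them. Read totals are not given. An estimate from the worth of 1 fragment in the lowest values put 482N1, 368T1 and 394T4 at 0.581, 0.610 and 0.554 of the depth of 238N1, but only 162 of 952, 130 of 764 and 130 of 761 low genes lay within 1% of these ratios, so relative depth is uncertain. For Trp53 itself 238N1 gave 1.57 FPKM and 394T4 gave 2.74 FPKM, with a listed 0 in the other two lines. Of 6 markers of carcinoma epithelium (Epcam, Cdh1, Krt8, Krt18, Krt7 and Krt19), all reached 1 FPKM in every line. But 5 of them, all but Cdh1, stood lower in both metastatic lines, against 26.9% of all genes tested. At an unadjusted p under 0.05 in limma 3 of them (Epcam, Krt8 and Krt18) were lower, against 8.68% of all genes tested. Their summed level was 2916 FPKM in 238N1 and 1768 FPKM in 482N1, against 3941 FPKM in 368T1 and 3668 FPKM in 394T4. Epcam reached 4.13 FPKM in 238N1 and 4.76 FPKM in 482N1, against 53.98 FPKM in 368T1 and 34.3 FPKM in 394T4 (log2 fold change -3.02, SE 0.28; limma adjusted p = 0.0997). Krt7 reached 349.6 FPKM in 238N1 and 6.90 FPKM in 482N1, against 456.04 FPKM in 368T1 and 480.01 FPKM in 394T4. None of the 6 passed the test over all genes. The part of these epithelial markers in the differences between the groups was not tested. Of 6 leukocyte markers 5, Ptprc and Cd3e among them, were listed at 0 in all 4 lines, and no endothelial marker reached 1 FPKM. The summed level of fibroblast markers was 0.678 FPKM in 238N1 and 39.8 FPKM in 482N1, against 2.48 FPKM in 368T1 and 4.30 FPKM in 394T4. In 482N1 4 of these 8 markers reached 1 FPKM (Col1a1, Col3a1, Pdgfrb and Acta2), while Dcn, Lum and Col1a2 were listed at 0 in all lines. Fold changes without 482N1 are therefore given for the 9 genes, and for other named genes where leaving it out moved the value by over 1.5 times.

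The 9 genes are known for their response to YAP and TAZ, which reach DNA through the TEAD factors, so a TEAD motif near them is tied to why they were chosen. RefSeq promoter sequences (build GRCm38.p6, 250 bases before to 50 bases after the annotated start) were available for 8 of the 9 genes, Ctgf being the one not matched. The 6-base TEAD motif, GGAATG or its reverse complement CATTCC, was searched on both strands. It was found in 7 of the 8 genes, all but Nt5e, against 16.6% of the 27025 genes with a promoter in the same collection. The AP-1 motif TGANTCA, which often lies beside TEAD sites in enhancers, was added after the data were seen and was found in none of the 8, against 8.97% of those genes. Among the further YAP and TAZ targets described later, the TEAD motif was found in 2 of the 9 with a promoter. It was found in 5 of 18 Hippo pathway genes and in 4 of 6 TEAD and VGLL genes. Fewer than 80% of each of these lists had a promoter (9 of 15, 18 of 23 and 6 of 8), which makes a comparison with them void. A match describes the letters of these windows and is no measure of binding. The matches are given here with 12 bases on each side, read 5′ to 3′ on the gene's strand, with the motif in capitals, because the genes of both coactivators and most of the targets hold one:
Yap1: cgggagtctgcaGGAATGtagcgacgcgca
Wwtr1: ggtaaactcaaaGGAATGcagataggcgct
Cyr61: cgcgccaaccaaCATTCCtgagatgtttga
Ankrd1, distal: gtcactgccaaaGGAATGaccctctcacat
Ankrd1, proximal: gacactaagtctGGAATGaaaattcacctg
Amotl2: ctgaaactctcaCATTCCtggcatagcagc
Axl: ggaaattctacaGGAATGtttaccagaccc
Lats2: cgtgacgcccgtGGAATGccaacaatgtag

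Counted from the annotated start, the motif began at -141 in Yap1 (window chr9:8004720-8004749, minus strand) and at -136 from the upstream start of Wwtr1 (chr3:57576029-57576058, minus strand). In the targets it began at -103 in Cyr61 (chr3:145650071-145650100, minus strand), at -65 in Amotl2 (chr9:102717727-102717756, plus strand) and at -233 in Axl (chr7:25788949-25788978, minus strand). Ankrd1 held the motif at 2 places, -210 and -123 (chr19:36120037-36120066 and chr19:36119950-36119979, minus strand). In Lats2 it lay after the upstream start, from base 5 of that transcript (chr14:57746102-57746131, minus strand). The window of the downstream start of Lats2 held no match. Cyr61 and Amotl2 carried it on the strand opposite to the gene.

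**Figure D1:**
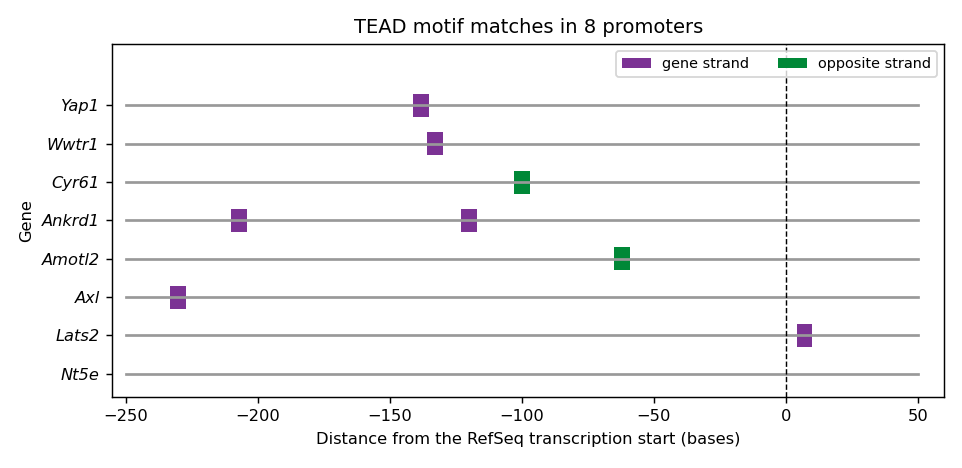
Position of the TEAD motif in the 300-base RefSeq promoter windows of 8 genes, with distance from the annotated start in bases on the x axis. Purple blocks are matches on the gene's strand and green blocks are matches on the opposite strand. Ankrd1 has 2 matches, Nt5e has none, and the match in Lats2 lies after its upstream start.

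Cyr61 and Ankrd1, both classical YAP and TAZ targets, were the members that varied most in these lines apart from Nt5e, and their 250 bases before the start are printed for that reason, with the motif in capitals (Cyr61 at chr3:145649986-145650235 and Ankrd1 at chr19:36119845-36120094, both minus strand, GRCm38.p6):
Cyr61: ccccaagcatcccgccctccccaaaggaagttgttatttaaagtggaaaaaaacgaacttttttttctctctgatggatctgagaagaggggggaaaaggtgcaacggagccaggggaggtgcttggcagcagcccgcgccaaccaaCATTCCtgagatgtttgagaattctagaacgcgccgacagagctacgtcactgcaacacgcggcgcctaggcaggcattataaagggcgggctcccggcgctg
Ankrd1: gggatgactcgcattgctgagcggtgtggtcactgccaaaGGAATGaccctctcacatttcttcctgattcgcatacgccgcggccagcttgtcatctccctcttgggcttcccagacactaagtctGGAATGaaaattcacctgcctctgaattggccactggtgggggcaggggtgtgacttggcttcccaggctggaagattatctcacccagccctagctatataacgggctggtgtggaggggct

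The comparison in the design sets the metastatic lines against the non-metastatic lines. All 9 genes were expressed in all 4 lines, and they did not move together. Axl, Nt5e and Yap1 stood higher in both metastatic lines, Cyr61 stood lower in both, and Ctgf was nearly level. None of the 9 passed the test: limma on log2(FPKM + 1) over the 12425 genes with a mean of at least 1 FPKM, at a Benjamini-Hochberg adjusted p under 0.05. Over all genes tested 0.113% were called higher and 0.0483% lower in the metastatic lines. At an unadjusted p under 0.05, 2 of the 9 genes, Axl and Nt5e, were higher and none was lower, against 5.7% and 8.68% of all genes tested. Both metastatic lines lay above both non-metastatic lines in 3 of the 9 genes, against 28.3% of all genes tested, and below them in 1 of the 9, against 26.9%. The share above is near the background, and nothing is read from a count of 1. Without 482N1 the counts were 4 and 3 of the 9, against 40.1% and 38.0% of all genes tested, which is also near the background. In bulk RNA, fewer cells that express a gene and less RNA per cell cannot be told apart. Their median log2 fold change was 0.19, and that of all genes tested was 0.045. With 2 lines a group an exact permutation test of a single gene cannot give a two-sided p below 0.333, and the p-values measure only the spread between single libraries.

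**Figure D2:**
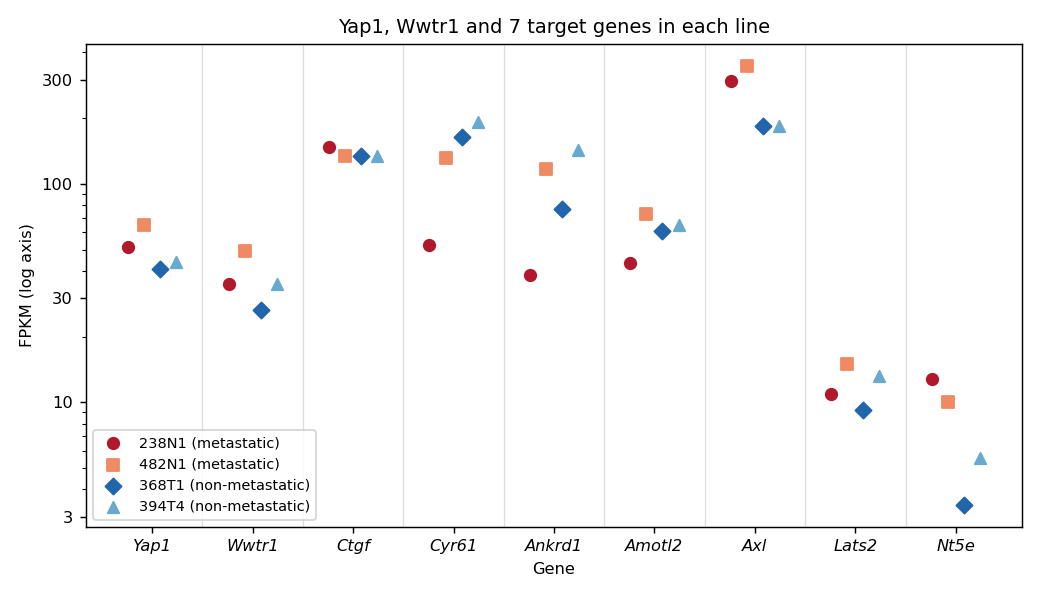
FPKM of the 9 genes (log axis) in each line, with 1 point per library. Axl, Nt5e and Yap1 lie higher in both metastatic lines, Ctgf lies between 133.8 and 148.2 FPKM in all 4, and Cyr61 and Ankrd1 are lowest in 238N1.

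Yap1 (ENSMUSG00000053110; chromosome 9, 7931999 to 8004596, mm9), the coactivator itself, reached 51.6 FPKM in 238N1 and 65.0 FPKM in 482N1, against 40.9 FPKM in 368T1 and 43.9 FPKM in 394T4. The groups did not overlap, and 482N1 stood furthest from the rest. The group means were 58.3 ± 9.43 FPKM (metastatic) and 42.4 ± 2.12 FPKM (non-metastatic; ± SD over 2 lines each), a log2 fold change of 0.44 (SE 0.18; limma adjusted p = 0.356). Without 482N1 the log2 fold change was 0.28 (adjusted p = 0.533). An antisense gene that shares exon bases with Yap1, RP23-349N15.1, was at most 0.0222 FPKM in any line. Whether the counting used strand is not stated, so reads of the pair cannot be told apart.

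Wwtr1 (ENSMUSG00000027803; chromosome 3, 57259571 to 57379832), which encodes the paralog TAZ, reached 34.9 FPKM in 238N1 and 49.5 FPKM in 482N1, against 26.6 FPKM in 368T1 and 34.9 FPKM in 394T4. The groups met at 238N1 and 394T4, so this gene did not separate them. Its log2 fold change of 0.43 (SE 0.26; limma adjusted p = 0.433) was close to that of Yap1, and it was 0.19 without 482N1, 0.68 without 238N1 and 0.25 without 368T1. Within a library the FPKM of Wwtr1 was 0.675 of that of Yap1 in 238N1 and 0.762 of it in 482N1, against 0.650 in 368T1 and 0.795 in 394T4. This ratio is independent of any scaling between libraries, and in each line Yap1 was the more abundant coactivator RNA per transcript length.

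Ctgf (ENSMUSG00000019997; chromosome 10, 24315248 to 24318489) encodes the secreted matricellular protein CCN2 and is the target most often used as a readout of YAP and TAZ. It reached 148.2 FPKM in 238N1 and 133.8 FPKM in 482N1, against 134.3 FPKM in 368T1 and 134.8 FPKM in 394T4. The other lines were within about 1 FPKM of each other, and 238N1 lay slightly above them. The highest value was 1.11 times the lowest, and only 1.57% of 8791 genes with a mean of at least 5 FPKM and no value of 0 had so narrow a range. The median of those genes was 1.596. The log2 fold change was 0.065 (SE 0.14; limma adjusted p = 0.811), and without 482N1 it was 0.14. The antisense gene Gm15270, which shares exon bases with Ctgf, stood between 1.20 and 5.15 FPKM.

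Cyr61 (ENSMUSG00000028195; chromosome 3, 145309935 to 145312949) encodes CCN1, of the same secreted family as CTGF, but did not follow it. It reached 52.7 FPKM in 238N1 and 131.0 FPKM in 482N1, against 163.3 FPKM in 368T1 and 192.9 FPKM in 394T4. Both metastatic lines were below both non-metastatic lines, most of the difference lying in 238N1. The group means were 91.8 ± 55.4 FPKM (metastatic) and 178.1 ± 20.9 FPKM (non-metastatic; ± SD over 2 lines each), with a log2 fold change of -1.08 (SE 0.47; limma adjusted p = 0.363). Without 238N1 the log2 fold change was -0.44, and without 482N1 it was -1.73. When the values were scaled to the library sum, with or without the largest row, the groups overlapped for this gene.

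Ankrd1 (ENSMUSG00000024803; chromosome 19, 36186455 to 36194334), a nuclear ankyrin-repeat protein first known from heart and muscle, also had its lowest value in 238N1. It reached 38.3 FPKM in 238N1 and 116.8 FPKM in 482N1, against 76.96 FPKM in 368T1 and 142.6 FPKM in 394T4. The groups overlapped, and the lines within a group differed more than the group means. The log2 fold change was -0.64 (SE 0.64; limma adjusted p = 0.594), and it was -1.43 without 482N1, -1.08 without 368T1 and -0.20 without 394T4. Without 238N1 it was 0.15, in the opposite direction. The highest value of Ankrd1 was 3.72 times its lowest and that of Cyr61 3.66 times, and 95.8% and 95.6% of the 8791 genes had no wider range.

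The 2 targets that act as brakes on the pathway overlapped between the groups. Amotl2 (ENSMUSG00000032531; chromosome 9, 102619002 to 102635748) encodes an angiomotin-like junction protein that binds YAP and holds it in the cytoplasm. It reached 43.5 FPKM in 238N1 and 73.0 FPKM in 482N1, against 60.9 FPKM in 368T1 and 64.9 FPKM in 394T4, so the non-metastatic lines lay between the metastatic ones. The log2 fold change was -0.16 (SE 0.29; limma adjusted p = 0.782), and without 482N1 it was -0.52. Lats2 (ENSMUSG00000021959; chromosome 14, 58260914 to 58377225) encodes the kinase that phosphorylates YAP and TAZ. It reached 10.9 FPKM in 238N1 and 15.03 FPKM in 482N1, against 9.22 FPKM in 368T1 and 13.3 FPKM in 394T4, with overlapping groups and a log2 fold change of 0.19 (SE 0.28; limma adjusted p = 0.713). Lats2 shares exon bases with its neighbour Xpo4 (4.94 to 8.01 FPKM), so its reads could have been split between them. The direction of Amotl2 turned under scaling to the library sum, with or without the largest row, under quantile normalization and without 238N1, and that of Lats2 turned without 482N1 (-0.020) or without 368T1 (-0.046).

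The 2 cell surface targets, Axl and Nt5e, stood higher in both metastatic lines. Axl (ENSMUSG00000002602; chromosome 7, 26542292 to 26573724), a receptor tyrosine kinase for the ligand GAS6, was the most abundant of the 9 genes in every line but 394T4, where Cyr61 stood slightly higher. It reached 294.6 FPKM in 238N1 and 346.6 FPKM in 482N1, against 183.9 FPKM in 368T1 and 184.1 FPKM in 394T4. The group means were 320.6 ± 36.8 FPKM (metastatic) and 184.0 ± 0.0792 FPKM (non-metastatic; ± SD over 2 lines each), with a log2 fold change of 0.79 (SE 0.15). It had the lowest p of the 9 genes and did not pass over all genes (limma unadjusted p = 0.00545, adjusted p = 0.328).

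Nt5e (ENSMUSG00000032420; chromosome 9, 88222447 to 88266927) encodes CD73, the surface enzyme that makes adenosine from AMP. It reached 12.8 FPKM in 238N1 and 10.004 FPKM in 482N1, against 3.40 FPKM in 368T1 and 5.56 FPKM in 394T4. It had the largest fold change of the 9 genes and was among the least abundant. The group means were 11.4 ± 2.00 FPKM (metastatic) and 4.48 ± 1.53 FPKM (non-metastatic; ± SD over 2 lines each), with a log2 fold change of 1.20 (SE 0.30; limma unadjusted p = 0.0142, adjusted p = 0.335). Without 482N1, the line with the highest fibroblast marker sum, the log2 fold change was 1.37 for Nt5e and 0.68 for Axl. With a pseudocount of 5 that of Nt5e was 0.80.

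**Figure D3:**
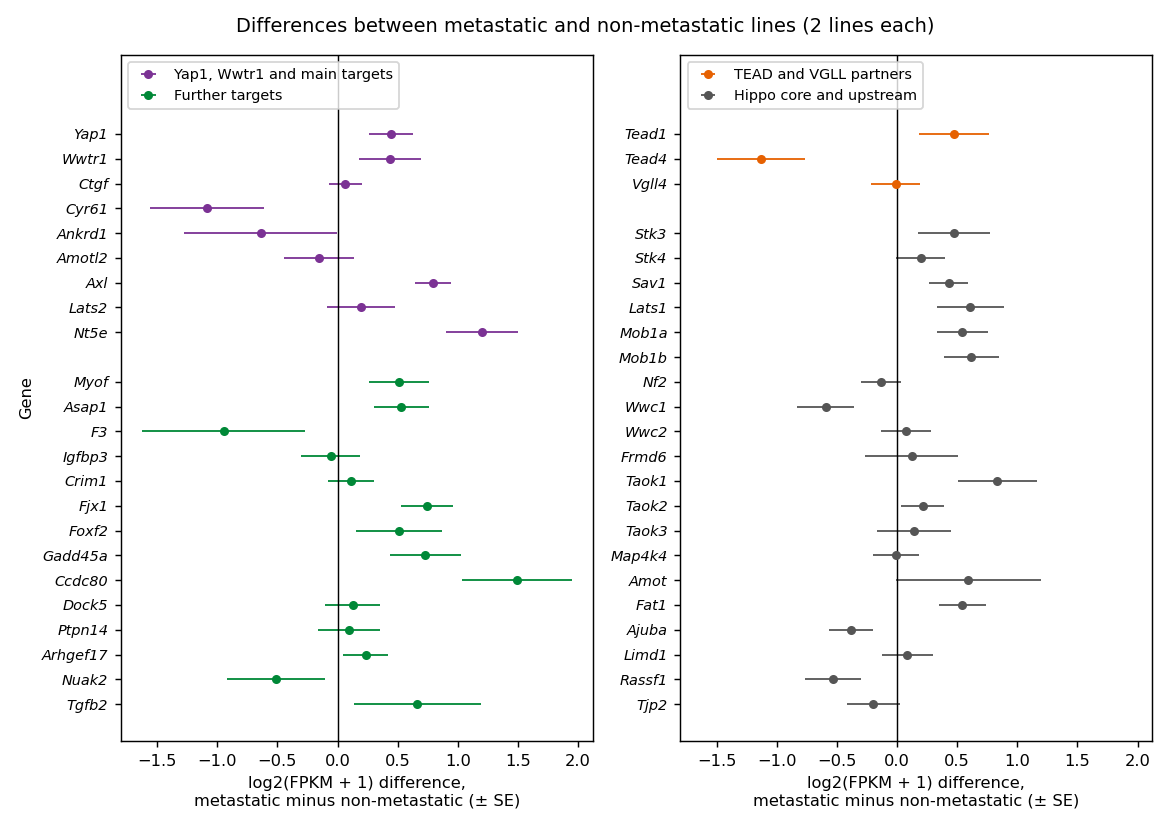
Difference of log2(FPKM + 1), metastatic minus non-metastatic lines, for each tested gene with values above 0 in all lines; points are limma estimates and bars are standard errors, with 2 lines per group. Nt5e and Axl lie furthest to the right and Cyr61 furthest to the left among the 9 main genes, Ccdc80, whose place depends on the pseudocount, furthest to the right among further targets, and Tead4 to the left among TEAD factors.

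The place of each gene in the order of the 12425 tested genes of a library does not depend on scaling by library size. Yap1 stood at percentile 85.1 in 238N1 and 88.8 in 482N1, against 79.6 in 368T1 and 80.7 in 394T4. Nt5e stood at percentile 51.3 and 42.2 in 238N1 and 482N1, against 23.0 and 30.8 in 368T1 and 394T4. Axl stood at 97.8 and 98.4 in 238N1 and 482N1, against 95.9 and 96.0 in 368T1 and 394T4. Cyr61 stood at 85.5 and 95.0 in 238N1 and 482N1, against 95.2 and 96.2 in 368T1 and 394T4. For these 4 genes the groups were apart on this scale too, although 482N1 and 368T1 were almost equal for Cyr61. They were picked because their FPKM did not overlap, and percentiles are ranks of the same values, so this is no separate support. Wwtr1 (77.4 and 84.5 against 70.6 and 76.0) and Ctgf (95.5 and 95.1 against 94.0 and 94.3) were also apart. Ankrd1, Amotl2 and Lats2 overlapped. The share of all genes apart on this scale was not counted.

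Ratios to Ctgf inside each library, chosen after the values were seen, describe the same split without any scaling. Cyr61 was 0.356 of Ctgf in 238N1 and 0.979 in 482N1, against 1.22 in 368T1 and 1.43 in 394T4. Axl was 1.99 times Ctgf in 238N1 and 2.59 times in 482N1, against 1.37 times in 368T1 and 1.36 times in 394T4. Nt5e was 0.0866 of Ctgf in 238N1 and 0.0748 in 482N1, against 0.0253 in 368T1 and 0.0412 in 394T4. In each of these 3 ratios the groups did not overlap, whereas Ankrd1 to Ctgf, at 0.258 and 0.873 in 238N1 and 482N1 against 0.573 and 1.06 in 368T1 and 394T4, overlapped. Since the highest value of Ctgf was only 1.11 times its lowest, these ratios largely repeat the FPKM values and are no separate support. The share of all genes whose ratio to Ctgf keeps the groups apart was not counted.

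**Figure D4:**
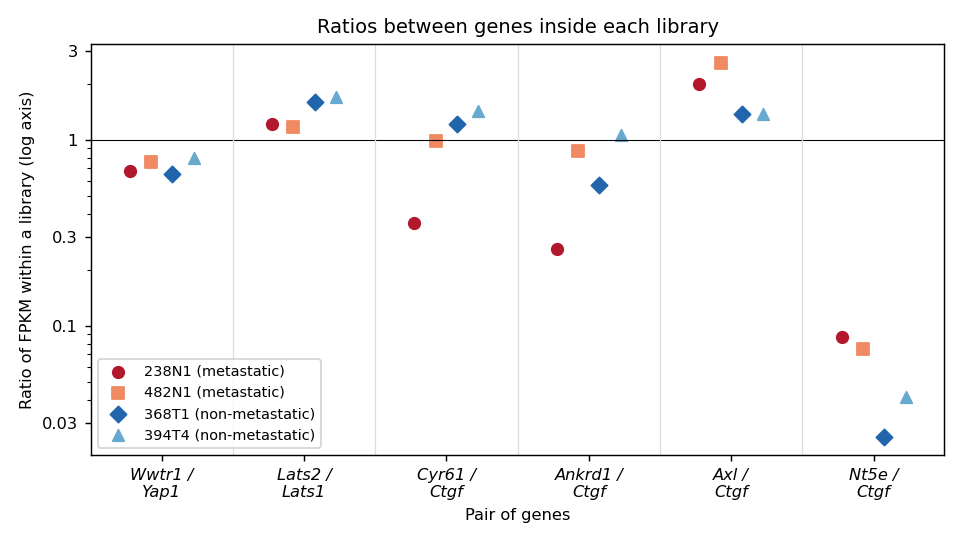
Ratios of FPKM between genes of 1 library (log axis), with 1 point per line. Axl and Nt5e relative to Ctgf lie higher in both metastatic lines, Cyr61 relative to Ctgf and Lats2 relative to Lats1 lie lower in both, and Wwtr1 relative to Yap1 lies between 0.650 and 0.795 in all 4 lines.

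Between the metastatic lines, 238N1 was above 482N1 in 2 of the 9 genes, Ctgf and Nt5e, against 5649 of the 12425 genes tested. On the FPKM + 1 scale, 2 of the 9, Cyr61 and Ankrd1, were at least 2-fold lower in 238N1, against 6.18% of all genes tested, and none was at least 2-fold higher, against 4.36%. Between the non-metastatic lines no gene reached 2-fold, against 3.17% of all genes with 368T1 higher and 3.27% with 368T1 lower. There 368T1 was above 394T4 in 0 of the 9 genes, against 4934 of the 12425 genes tested. For Ctgf and Axl it was below by under 1 FPKM. Each of these comparisons sets 1 library against 1 and has no replicate check.

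The further YAP and TAZ targets were a list of 15 genes taken beside the 9 main genes. Of these, 14 were tested, and none passed over all genes. At an unadjusted p under 0.05, 2 were higher (Ccdc80 and Fjx1) and none was lower, against 5.7% and 8.68% of all genes. Both metastatic lines lay above both non-metastatic lines in 6 of the 14 and below in none, against the shares of 28.3% and 26.9% of all genes. Without 482N1 the counts were 7 and 1, against 40.1% and 38.0%. The median log2 fold change was 0.37, with 11 positive and 3 negative values. Over all genes tested it was 0.045, with 6638 positive and 5787 negative values. The highest value lay in 482N1 for 9 of the 14, as it did for 4640 of the 12425 genes tested. 482N1 also had the highest sum of fibroblast markers, whose part in the result was not tested.

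Ccdc80, a secreted matrix protein, reached 2.92 FPKM in 238N1 and 4.40 FPKM in 482N1, against 1.24 FPKM in 368T1 and 0.194 FPKM in 394T4 (log2 fold change 1.49, SE 0.45; limma adjusted p = 0.335). At these low levels its fold change depended on the pseudocount, being 2.55 with 0.1 and 0.60 with 5. Fjx1, a secreted protein related to the fly kinase four-jointed, had levels of 14.1 and 15.07 FPKM in 238N1 and 482N1, against 9.50 and 7.21 FPKM in 368T1 and 394T4 (0.75, SE 0.22; adjusted p = 0.335). Gadd45a, a stress and DNA damage response gene, had levels of 25.1 and 21.7 FPKM in 238N1 and 482N1, against 10.6 and 17.7 FPKM in 368T1 and 394T4 (0.73, SE 0.30; adjusted p = 0.355; 0.38 without 368T1). These 3 genes were higher in both metastatic lines, with values that differed between lines of a group by less than between the group means. Gadd45a shares exon bases with the antisense gene E230016M11Rik, so reads of the pair cannot be told apart. Asap1, an ARF GTPase-activating protein of focal adhesions, had levels of 31.1 and 44.6 FPKM in 238N1 and 482N1, against 25.1 and 25.8 FPKM in 368T1 and 394T4 (0.53, SE 0.23; adjusted p = 0.361; 0.28 without 482N1).

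A pair of further targets, chosen after their values were seen, ran low in 482N1 alone. F3, tissue factor, reached 75.96 FPKM in 238N1 and 19.9 FPKM in 482N1, against 66.6 FPKM in 368T1 and 87.5 FPKM in 394T4. Nuak2, a stress-responsive kinase, reached 6.95 FPKM in 238N1 and 2.999 FPKM in 482N1, against 6.35 FPKM in 368T1 and 7.81 FPKM in 394T4. Cyr61 and Ankrd1 were instead lowest in 238N1.

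**Figure D5:**
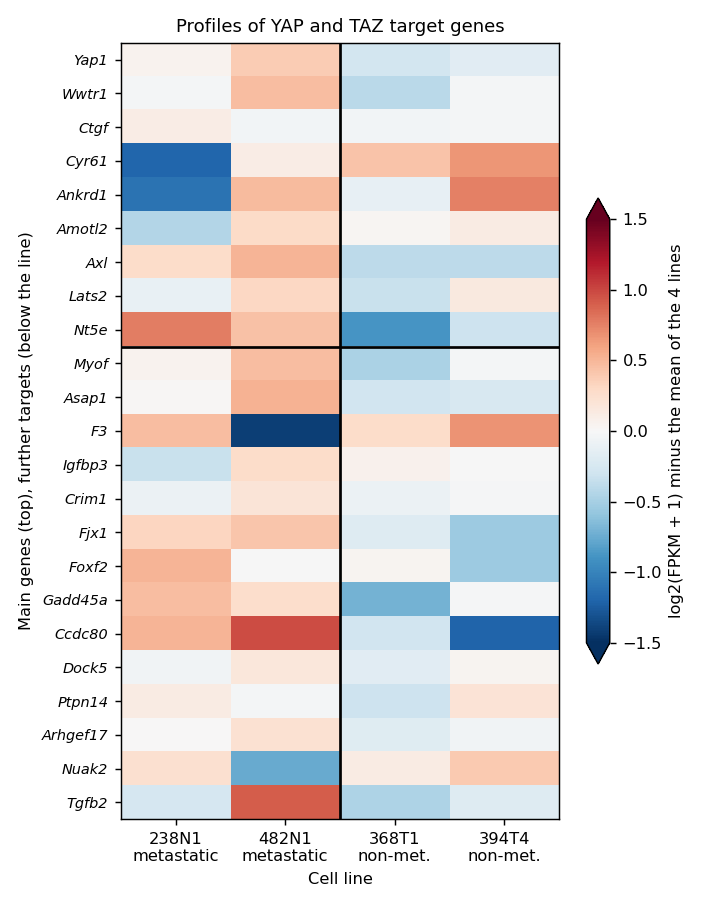
Log2(FPKM + 1) of each gene minus its mean over the 4 lines (color), for the 9 main genes (above the black line) and the 14 further targets tested (below it). Cyr61 and Ankrd1 are low in 238N1 alone, at -1.19 and -1.11, F3 and Nuak2 are low in 482N1 alone, at -1.41 and -0.75, and the row of Ctgf is nearly blank.

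Among the TEAD factors, which carry YAP and TAZ to DNA, Tead4 had the largest fold change of those with no listed 0. It reached 11.1 FPKM in 238N1 and 5.30 FPKM in 482N1, against 18.7 FPKM in 368T1 and 17.4 FPKM in 394T4, with groups that did not overlap (log2 fold change -1.13, SE 0.37; limma unadjusted p = 0.0344, adjusted p = 0.340). Without 482N1 its log2 fold change was -0.66. Tead1 reached 12.5 FPKM in 238N1 and 20.6 FPKM in 482N1, against 10.6 FPKM in 368T1 and 12.01 FPKM in 394T4 (0.48, SE 0.29; adjusted p = 0.443). Its log2 fold change was 0.14 without 482N1 and 0.81 without 238N1. Reads of Tead1 could be split, since a second gene ID with the same symbol shares its exon bases and held 1.35 and 5.06 FPKM in 238N1 and 482N1, against 1.13 and 3.84 in 368T1 and 394T4. Added up, the IDs gave a log2 fold change of 0.44. Within a library Tead4 was 0.885 and 0.258 of Tead1 in 238N1 and 482N1, against 1.77 and 1.45 in 368T1 and 394T4.

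The other partners gave less. Tead2, which shares exon bases with the antisense gene Cd37, had 106.9 FPKM in 482N1 and 70.8 FPKM in 368T1. The table lists Tead2 at 0 for 238N1 and 394T4. Tead3 had 7.74 FPKM in 238N1, 10.2 FPKM in 368T1 and 9.02 FPKM in 394T4, and the table lists it at 0 for 482N1. A listed 0 can be a failed estimate, as 313 of the 5611 rows that reached 20 FPKM in a line were at 0 in another, so no fold is given for these genes. Vgll4, a TEAD cofactor that competes with YAP, reached 47.5 FPKM in 238N1 and 35.5 FPKM in 482N1, against 40.6 FPKM in 368T1 and 42.3 FPKM in 394T4. Of the 8 TEAD and VGLL genes 5 were tested, none passed, and 1, Tead4, was lower at an unadjusted p under 0.05, against 8.68% of all genes tested.

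The Hippo kinases and their regulators gave no gene past the test among 20 tested of 23 listed. At an unadjusted p under 0.05, 2 were higher (Mob1b and Fat1) and none was lower, against 5.7% and 8.68% of all genes tested. Both metastatic lines lay above both non-metastatic lines in 8 (Stk3, Sav1, Lats1, Mob1a, Mob1b, Taok1, Taok2 and Fat1) and below in 3 (Wwc1, Ajuba and Rassf1), against 28.3% and 26.9% of all genes tested. Without 482N1 the counts were 10 and 4, against 40.1% and 38.0%. Their median log2 fold change was 0.17.

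Lats1, the paralog of Lats2, reached 9.05 FPKM in 238N1 and 12.9 FPKM in 482N1, against 5.80 FPKM in 368T1 and 7.82 FPKM in 394T4 (log2 fold change 0.61, SE 0.28; limma adjusted p = 0.373; 0.38 without 482N1). Lats2 was 1.21 and 1.16 times Lats1 in 238N1 and 482N1, against 1.59 and 1.70 times in 368T1 and 394T4, so the target gene of the pair was the more abundant in every line. Taok1, a kinase that activates the MST kinases, had levels of 6.43 and 10.7 FPKM in 238N1 and 482N1, against 3.62 and 4.91 FPKM in 368T1 and 394T4 (0.83, SE 0.33; adjusted p = 0.353; 0.51 without 482N1). Taok1 shares exon bases with the antisense gene Abhd15, so reads of the pair cannot be told apart. Mob1b, an activator of the LATS kinases, had levels of 9.08 and 11.5 FPKM in 238N1 and 482N1, against 5.83 and 6.87 FPKM in 368T1 and 394T4 (0.62, SE 0.23; adjusted p = 0.344). Wwc1, the upstream adaptor KIBRA, ran the other way, with levels of 34.7 and 23.5 FPKM in 238N1 and 482N1, against 42.9 and 44.5 FPKM in 368T1 and 394T4 (-0.59, SE 0.24; adjusted p = 0.354; -0.32 without 482N1). Nf2, the adaptor Merlin, was nearly level, with levels of 35.1 and 30.2 FPKM in 238N1 and 482N1, against 34.9 and 36.6 FPKM in 368T1 and 394T4 (-0.13, SE 0.17; adjusted p = 0.675; -0.024 without 482N1).

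The genes whose profile over the 4 lines was most like that of Yap1 were Ift52, Dyrk1a and Riok2, with root-mean-square differences of 0.0093, 0.0097 and 0.023 on the centred log2(FPKM + 1) scale. For Ctgf they were Cav2, Unc119 and Mpzl1, at 0.012, 0.016 and 0.018. Of the 7249 genes compared, 300 lay within 0.1 of Yap1 and 508 within 0.1 of Ctgf, so with 4 lines such likeness is common.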

How the data were processed

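Total RNA from 4 lines was sequenced as paired reads of 100 bp from Illumina TruSeq libraries and aligned to mm9, as the series design text and the labels state. The aligner TopHat, without a version, is credited to the submitters' processing notes. The values are FPKM per gene, as deposited by the authors per the file headers. What tool and annotation gave them, and any scaling between libraries, is not given in the sources used here. An item of the tumour genotype is not reported here.

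Where a symbol repeated among the 37527 rows, the row with the highest mean was kept. The test was limma 3.58.1 (R 4.3.3) with a variance trend on log2(FPKM + 1), two-sided, with 4 libraries, no covariate and 12425 genes of at least 1 FPKM on average. The script was tested on simulated data. Positions are from GENCODE vM1 (the mm9 assembly) and promoters from RefSeq (GRCm38.p6). Cyr61 was matched as Ccn1. The 9 genes and all lists were chosen with earlier results of these data known.

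Named beside the 9 genes were, of each list, the 4 genes with the largest fold change whose groups did not overlap, and Tead1 to Tead4, Lats1 and Nf2; others were named after their values were seen. The AP-1 search, the range over lines, the percentiles and the ratios within a library were also added then. Alternatives were a pseudocount of 0.1 or 5, no filter or a mean of at least 5 FPKM, 4 scalings, limma without trend or with robust=TRUE, rows of a symbol added up, genes listed at 0 left out, and each library left out.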

Additional observations from a re-analysis of the deposited data

How the results depend on the processing

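None of the 9 genes, the 14 further targets, the 5 TEAD and VGLL genes or the 20 Hippo genes passed limma's test under any of the 16 alternatives. This is no sign of stability for every alternative: with any 1 library left out no gene of the 12425 passed, with no filter 1 gene passed in each direction, and with genes listed at 0 left out none passed as higher. Of 319 fold changes of named genes, 307 kept their direction. Many of the 319 could not turn. The filters, the limma options and leaving out genes listed at 0 do not alter a fold change. Adding up rows altered only that of Tead1. Tead2 and Tead3 are not among the 319: the decision to give them no fold change under any setting, because of listed zeros, was taken after their values were seen. Both metastatic lines lay above in 5 of the 9 genes, not 3, after scaling to the library sum, after the same without its largest row and after quantile normalization, against 43.6%, 42.1% and 24.3% of all genes. The count was 3 to 6 with 1 library left out (6 without 238N1, 5 without 394T4), against 33.0% to 44.9%. They lay below in 0, not 1, after either library-sum scaling (1.93% and 14.9% of all genes), and in 1 to 3 with 1 library left out (2 without 238N1, 3 without 482N1, 2 without 368T1), against 34.2% to 38.8%. Without 482N1, a setting added after the data were seen for the other lists, the further targets gave 7 above and 1 below, not 6 and 0. The library-sum scalings moved the median log2 fold change of all genes from 0.045 to 0.61, and to 0.26 without the largest row. Part of the shifts under them is therefore shared by all genes. With quantile normalization that median was -0.017, but this scaling can move genes of different levels differently. Under it Ctgf went to 0.27 and Axl to 1.04, while Nt5e went to 1.02 and Lats2 to 0.091. Why the count rose to 5 of the 9 there was not tested. The directions that turned were those of Ctgf (-0.029 with median centring; -0.0075 to 0.14 with 1 library left out), Amotl2 (0.48 and 0.085 with the library sum and without its largest row, 0.024 with quantile normalization; -0.52 to 0.21), Nf2 (0.50 and 0.11 with those sums), Wwc1 (0.034 with the library sum), Ankrd1 (-1.43 to 0.15) and Lats2 (-0.046 to 0.43). Yap1, Wwtr1, Cyr61, Axl and Nt5e kept their direction under all 16. For all of these but Wwtr1 the groups did not overlap, so only the 4 scalings could have turned them. Adjusted p over all these fits ran from 0.128 to 0.998. With 1 library left out, the lone line is assumed to vary like the other group. No paired analysis was possible because the labels number no replicates across the groups. Depth in fragments is unknown, and the number of lines limits precision.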

Other observations

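Other genes of the pathway were low or listed at 0. Amotl1, the angiomotin-like relative of Amotl2, and Dchs1, a cadherin ligand of Fat4, were listed at 0 in all 4 lines, as was Vgll1. Fat4 stood between 0.0152 and 0.468 FPKM, while Fat1, its relative, reached 74.5 FPKM in 238N1 and 61.2 FPKM in 482N1, against 41.8 FPKM in 368T1 and 50.6 FPKM in 394T4. Fat1 shares exon bases with the antisense gene Gm2366, so reads of the pair cannot be told apart. Rbms3, the further target that was not tested, was listed at 0 in all lines but 394T4, where it stood at 0.629 FPKM. Amot, the founding angiomotin, reached 5.04 FPKM in 238N1 and 5.72 FPKM in 482N1, against 1.41 FPKM in 368T1 and 6.401 FPKM in 394T4.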
